A study of Mus musculus with 6 samples.

Results

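The 48 genes described here encode guidance cues and their receptors: the semaphorins of classes 3 to 6, the plexins, Slit1 to Slit3, Robo1 to Robo4, the netrins Ntn1, Ntn3 and Ntn4, the netrin-G genes Ntng1 and Ntng2, the netrin receptors Dcc, Neo1 and Unc5a to Unc5d, and Flrt2 and Flrt3. They were picked by symbol from the 55450 genes of the count table, with earlier results of these data known. The RNA was that of brain cells enriched for the endothelial surface protein CD31 on magnetic beads, from mice 7 days old. All mice, controls included, carried Cdh5(PAC)-CreERT2, a Cre recombinase that tamoxifen activates and that is expressed from the promoter of Cdh5, a cadherin gene of endothelial cells, and all were given tamoxifen into the stomach, 100 µg on day 1 and again on day 2 after birth. Control mice were Rbpjflox/WT, with 1 floxed allele of Rbpj, and mutant mice were Rbpjflox/flox, with both alleles floxed. The Rbpj protein binds DNA and is the nuclear partner of the cleaved Notch receptors. Both sexes were used, the strain background was mixed (FVB/N with C57BL/6), and there were 3 libraries in each group. The protocols describe RNA pooled from many animals and sequenced in triplicate, so p-values refer to the spread among 3 libraries of a group, and that spread may be technical.

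Guidance cues were first known for steering axons, and the same ligands and receptors act on vessels. Semaphorins bind plexins, and most secreted class 3 semaphorins need a neuropilin as the ligand-binding part of the receptor. Plexins carry a cytoplasmic GTPase-activating domain that acts on small GTPases of the Ras family. Slit proteins bind Robo receptors, while netrins bind Dcc, Neo1 and the Unc5 receptors. In endothelium, Plxnd1, Robo4 and Unc5b are the best-known receptors of these families, and they take part in sprouting, vessel patterning and barrier control.

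Libraries held 75744913 to 82092461 estimated counts. On the second principal component, with 18.8% of the variance, mutant library 3 lay at -55.6 and the other 5 libraries between -11.1 and 31.2. Rbpj itself had 54.3, 54.3 and 53.8 CPM (counts per 1000000, after TMM scaling) in control and 47.9, 46.8 and 45.2 CPM in mutant libraries. That is a log2 fold change of -0.21 ± 0.042 (SE), with an adjusted p of 0.0129 that rose to 0.0571, 0.0543 and 0.051 when control library 1, control library 2 or mutant library 2 was dropped. A gene-level count can also take in exons that the deletion leaves in place, so it tests the deletion only weakly. The cause of the size of this change was not tested. The 10 endothelial markers were present, with a summed level of 12151 to 12489 CPM in control and 12424 to 13440.4 CPM in mutant libraries (median 0.05). Of them 3 were higher, Pecam1 by 0.41, Emcn by 0.47 and Tie1 by 0.21 on the log2 scale, and 2 were lower, Tek at -0.62 and Cdh5 at -0.15. Cldn5, a tight junction gene of brain endothelium, was not called, at 3064 and 3095 CPM. Markers of other cells were present too. Of 10 smooth muscle markers 8 were lower and none higher (median log2 fold change -1.10), and their sum was 456 to 492 CPM in control and 228 to 263 CPM in mutant libraries. Of 10 fibroblast markers 3 were lower (median -0.46, sums of 1002 to 1124 and 617 to 808 CPM), and of 10 microglia and macrophage markers 6 were lower (median -0.33, sums of 1505 to 1537 and 1186 to 1240.1 CPM). Of 10 astrocyte markers 2 were lower (median -0.34, sums of 506 to 563 and 282 to 415 CPM), and of 9 erythroid markers 5 were lower and 1 higher (median -0.51). Pericyte markers were split, with 4 of 10 higher and 2 lower (sums of 4099 to 4212 and 4337 to 4459 CPM). Neuron markers had overlapping sums of 174 to 189.5 and 173 to 203 CPM, with 1 of 10 lower and a median of 0.25. For choroid plexus and ependyma 1 of 10 markers was lower (median -0.25, sums of 5109 to 5559 and 3463 to 4503 CPM). Most of these sums was Ttr, at 5168 and 3983 CPM on average and not called (adjusted p = 0.0882 in edgeR). For the oligodendrocyte lineage 2 of 10 were higher and 1 lower (median 0.14). No marker found in the table was at 0 in all libraries. Fewer cells of a type and less RNA per cell cannot be told apart in such libraries.

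Guidance genes moved in both directions in the mutant libraries. All 48 passed the filter on low counts. Of them, 8 were higher and 9 lower at an adjusted p under 0.05 in the edgeR quasi-likelihood test, or 16.7% and 18.8%, and 31 were not called. Over all 19549 genes tested 7.56% were called higher and 6.83% lower, 14.4% in all, against 35.4% of the guidance genes. The higher genes were the ligands Sema3a, Sema3f, Sema6b and Sema6d and the receptors Plxna2, Plxnb1, Plxnd1 and Unc5a. The lower genes were the ligands Sema3c, Sema3g, Sema5a, Slit2, Ntn4 and Ntng2, the receptors Plxna4 and Unc5b, and Flrt2, which has both roles. The median log2 fold change was -0.06 for the guidance genes and -0.01 for all genes tested, and the median of its absolute size was 0.31 against 0.19. Only Unc5a, Sema3f and Sema3g were called and changed at least 2-fold, 3 of 48, against 1.91% of all genes tested. Robo3 changed 2.72-fold at under 1 CPM and was not called. Control and mutant libraries did not overlap for 27 guidance genes, or 56.2%, against 34.1% of all genes tested. These 27 include all 17 called genes and 10 of the 31 that were not called. Of all 16737 genes that were tested and not called 23.0% had no overlap.

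**Figure D1:**
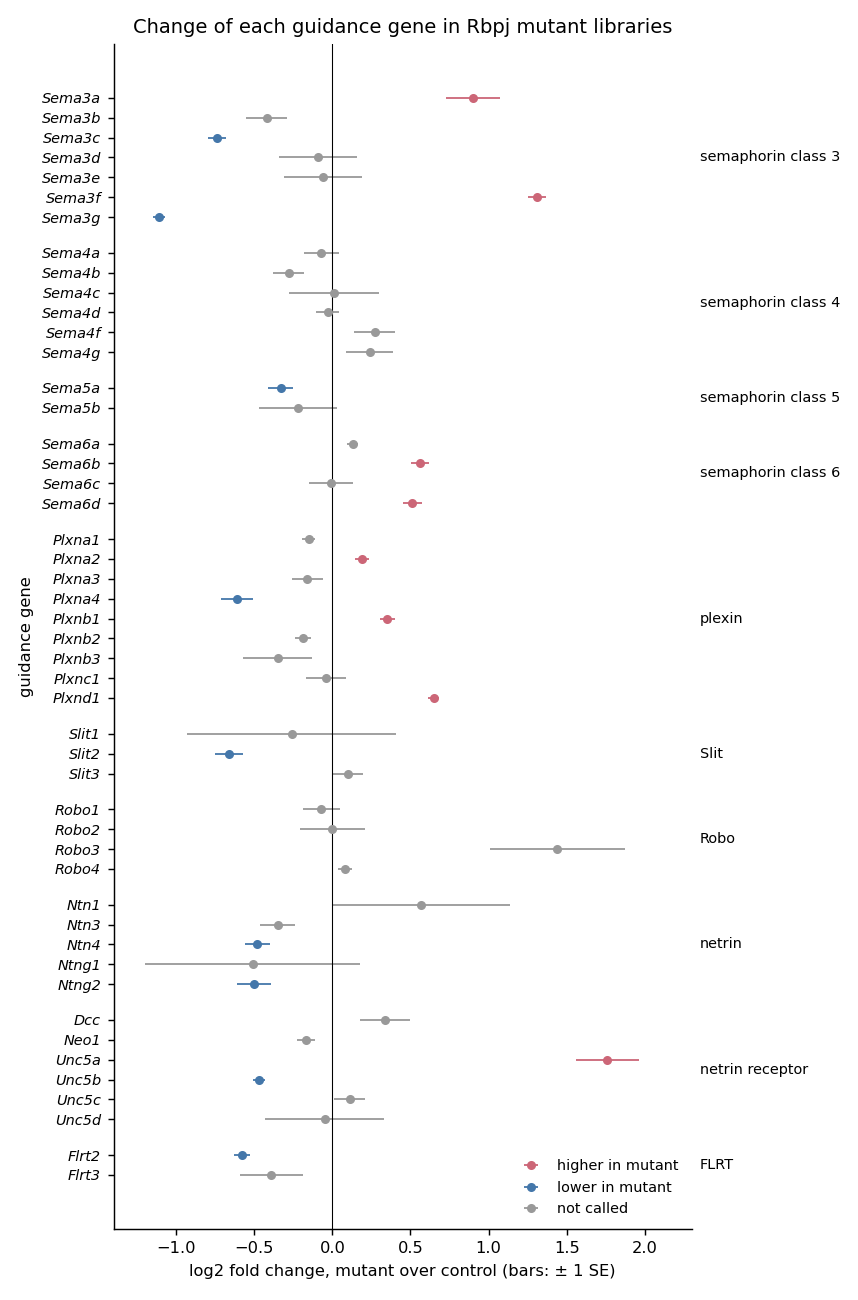
Log2 fold change of mutant over control for each of the 48 guidance genes, grouped by family; bars are ± 1 SE, red points were called higher, blue points lower and grey points were not called. Unc5a and Sema3f lie farthest to the right among called genes, at 1.76 and 1.31, and Sema3g farthest to the left at -1.11.

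To compare levels between genes, CPM were divided by the merged exon length in kilobases. Plxnd1 had the highest level in both groups, at 141 ± 3.07 CPM per kilobase (SD, n = 3) in control and 223 ± 7.25 in mutant libraries. Robo4, the Robo receptor of endothelium, came next with 63.3 ± 1.65 and 67.1 ± 3.18 CPM per kilobase. In control libraries Sema3g followed with 52.9 ± 0.335, Unc5b with 43.4 ± 0.382 and Plxnb2 with 33.3 ± 1.55 CPM per kilobase. In mutant libraries the order of these 3 was Unc5b with 31.4 ± 1.3, Plxnb2 with 29.3 ± 1.49 and Sema3g with 24.6 ± 0.93, and the first 2 lay within their spread of each other. At the other end Robo3, Slit1, Ntng1, Unc5d and Sema3e had under 1 CPM in both groups. Counts here come in steps of about 4, so the 10 to 26 counts of Slit1 and the 10 to 24 of Robo3 in control libraries rest on a few read pairs.

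**Figure D2:**
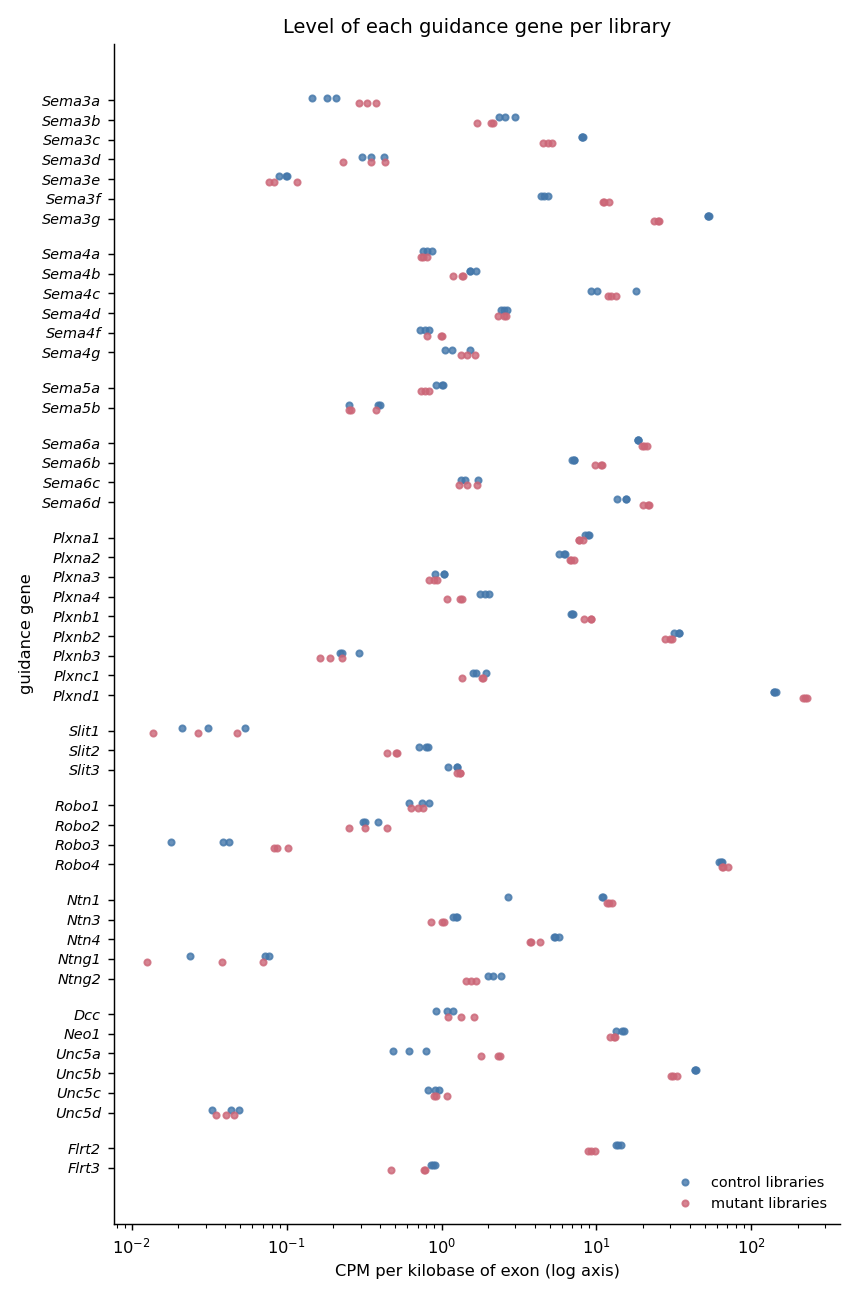
Level of each guidance gene in each of the 6 libraries, as CPM per kilobase of merged exon length on a log axis, with control libraries in blue and mutant libraries in red. Plxnd1 stands highest at 141 and 223 CPM per kilobase on average, while a single control library of Ntn1 stands apart from the other 5.

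Class 3 semaphorins, the secreted ones, held both large rises and large falls. Sema3g, a ligand known from arterial endothelium (ENSMUSG00000021904, chromosome 14 from 31217860 to 31230352, plus strand, GRCm38), had 242, 239 and 240 CPM in control and 107, 113 and 115 CPM in mutant libraries. Every mutant library was below every control library, and the 3 control libraries were nearly equal. Its log2 fold change was -1.11 ± 0.038, a 2.15-fold fall (adjusted p = 5.15e-06). Sema3c, a ligand for neuropilin receptors with plexins, fell 1.67-fold, from 58.3, 57.6 and 57.2 CPM to 32.1, 34.8 and 37.1 CPM (log2 fold change -0.74 ± 0.059, adjusted p = 0.000204). In the mutant libraries the medians of the smooth muscle and fibroblast markers were -1.10 and -0.46. The median of the endothelial markers was 0.05, with 3 of 10 higher and 2 lower. The part of these cell types in the falls of Sema3g and Sema3c was not tested.

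Sema3f, a ligand of the neuropilin Nrp2, went the other way (ENSMUSG00000034684, chromosome 9 from 107681500 to 107710475, minus strand). It had 23.8, 25.3 and 22.7 CPM in control and 62.3, 58.4 and 57.7 CPM in mutant libraries, with a wide gap between the groups. The log2 fold change was 1.31 ± 0.059, a 2.48-fold rise (adjusted p = 1.79e-05). Nrp2 was not called, with 227 ± 5.92 CPM in controls and 226 ± 10.1 CPM in mutants (adjusted p = 0.974). Sema3a, a ligand of Nrp1, rose 1.87-fold at a low level, from 2.87, 2.03 and 2.53 CPM to 4.57, 5.20 and 4.09 CPM (log2 fold change 0.90 ± 0.17, adjusted p = 0.0116). Its libraries held 166 to 227 counts in control and 303 to 404 in mutant. The remaining members were not called. Sema3b, whose gene lies 72270 bases from Sema3f on the same strand, averaged 12.6 ± 1.48 CPM in controls and 9.44 ± 1.16 CPM in mutants (adjusted p = 0.0725). Sema3d stood at 3.09 and 2.90 CPM, and Sema3e, the ligand that binds Plxnd1 directly, at 0.893 ± 0.0516 and 0.857 ± 0.198 CPM.

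**Figure D3:**
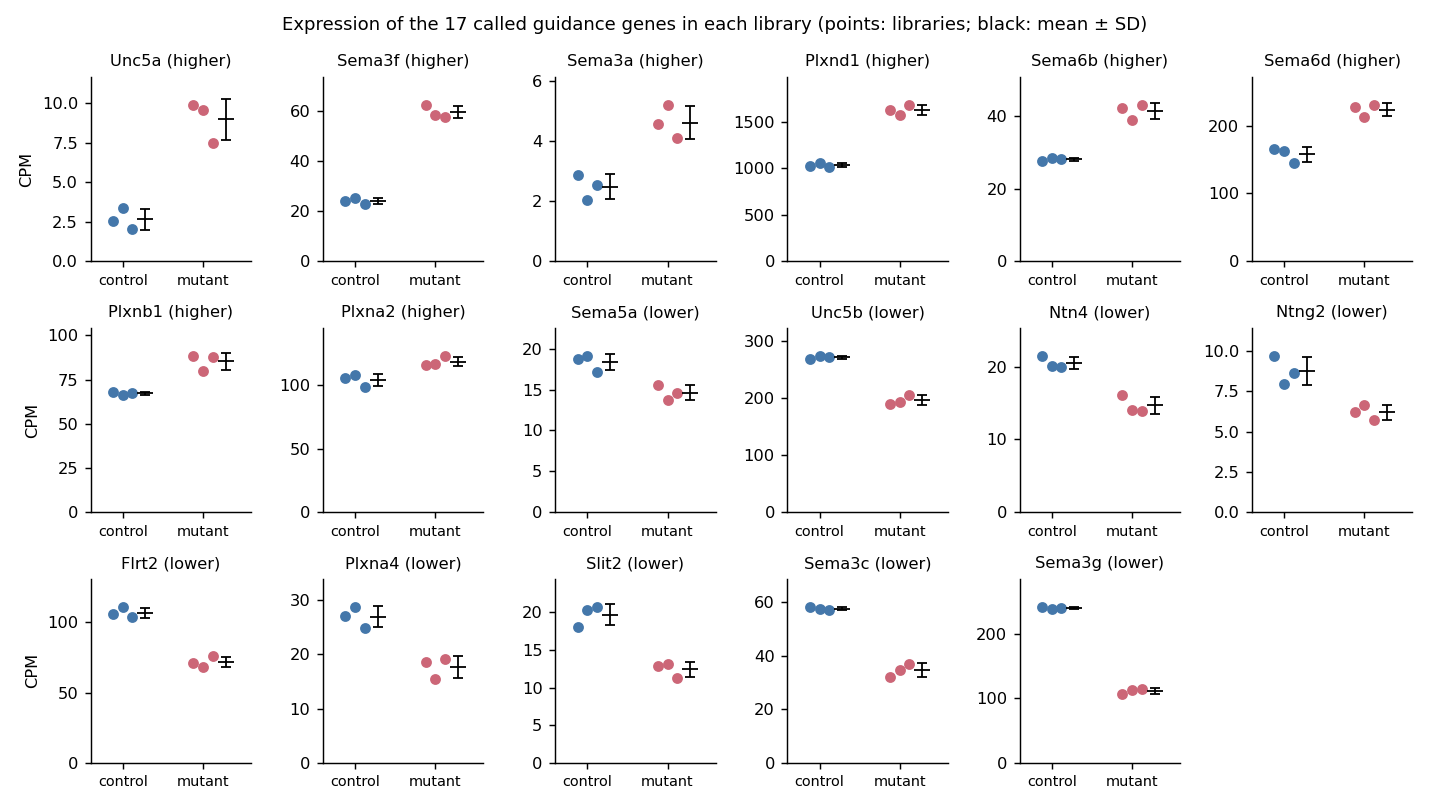
CPM of the 17 called guidance genes in each library, with 1 panel per gene on its own axis from 0; blue points are control libraries, red points mutant libraries, and black marks the mean ± SD of 3 libraries. No panel has overlapping groups, and for Unc5a the libraries span 2.04 to 3.33 CPM in control and 7.49 to 9.88 CPM in mutant.

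The make-up of the class 3 sum also differed between the groups. Summed over the 7 genes, the level was 69.8, 68.7 and 68.2 CPM per kilobase in control and 43.0, 43.9 and 44.0 in mutant libraries. Sema3g supplied 76.8 ± 0.542% of this sum in control and 56.4 ± 1.46% in mutant libraries. The share of Sema3f was 6.69 ± 0.363% in control and 26.2 ± 1.43% in mutant libraries, while that of Sema3c was 11.7 ± 0.0178% and 11.1 ± 0.675%.

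**Figure D4:**
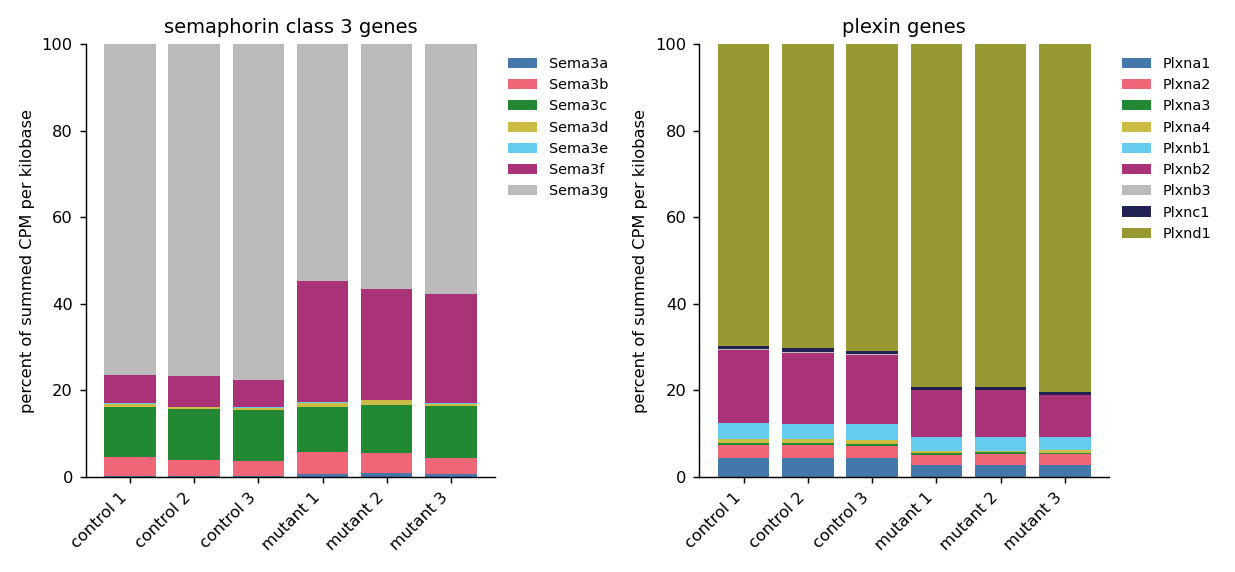
Share of each gene in the summed CPM per kilobase of the class 3 semaphorins (left) and the plexins (right), 1 stacked bar per library. Sema3g averages 76.8% of the class 3 sum in control and 56.4% in mutant libraries, and Plxnd1 averages 70.2% and 79.6% of the plexin sum.

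None of the 6 class 4 semaphorins, which span the membrane, was called by edgeR, DESeq2 or limma-voom, and 1 of them, Sema4b, had an unadjusted p under 0.05 in edgeR. Sema4c, a ligand of Plxnb2, had the highest level per length of this class and varied within the control group, with 42.4, 46.5 and 83.2 CPM against 61.8, 54.7 and 57.1 CPM in mutant libraries. Control library 3 lay above all other libraries and control libraries 1 and 2 below them. The log2 fold change was 0.01 ± 0.29 with all 6 libraries (adjusted p = 0.988), and without control library 3 it was 0.38 ± 0.072 (adjusted p = 0.0219). The exons of Sema4c overlap those of an antisense gene. Sema4d, a ligand of Plxnb1, had 19.4 ± 0.94 and 19.0 ± 1.14 CPM. The log2 fold changes of Sema4a, Sema4b, Sema4f and Sema4g lay between -0.28 and 0.27, with adjusted p from 0.12 to 0.784.

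Class 6 semaphorins, membrane-bound ligands of class A plexins, were higher where they were called. Of class 5 only Sema5a was called, and it was lower. Sema6d (ENSMUSG00000027200, chromosome 2 from 124089969 to 124667770, plus strand) had 165, 163 and 144 CPM in control and 228, 212 and 230.1 CPM in mutant libraries. All mutant libraries exceeded all control libraries, by a log2 fold change of 0.51 ± 0.061 (adjusted p = 0.00138). Sema6b rose from 27.6, 28.5 and 28.3 CPM to 42.2, 39.0 and 43.1 CPM (log2 fold change 0.56 ± 0.056, adjusted p = 0.000549). Sema6a, which had the highest control level of the class at 18.5 ± 0.063 CPM per kilobase, had 162, 163 and 162 CPM in control and 172, 177 and 185 CPM in mutant libraries. The groups of Sema6a did not overlap, but the log2 fold change of 0.13 ± 0.037 missed the threshold (adjusted p = 0.0587). With scaling by library size only, a stricter filter of 1 CPM in 3 libraries, or counts divided by 4 to stand for read pairs, its adjusted p was 0.037, 0.0441 and 0.0335. Sema6c stood at 8.86 and 8.82 CPM. Sema5a, whose protein carries thrombospondin repeats, fell from 18.8, 19.1 and 17.2 CPM to 15.6, 13.7 and 14.6 CPM (log2 fold change -0.33 ± 0.079, adjusted p = 0.0323). The call of Sema5a was lost when control library 1 or 2 or mutant library 2 or 3 was dropped (adjusted p of 0.113, 0.115, 0.112 and 0.0787). Sema5b had 2.46 and 2.11 CPM and was not called.

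Among the called members, Sema6d and Sema5a are the ones whose promoter in the RefSeq table holds TGGGAA, the core of the motif that the Rbpj protein binds, within the 250 bases before the start, on either strand. Their windows are printed because Rbpj is the gene deleted here. They are given on the gene's strand, 5′ to 3′, with the motif in capitals (TTCCCA where it lies on the opposite strand). For Sema6d the windows are chr2:124089719-124089760, with the motif at bases -249 to -244 from the start, and chr2:124089855-124089930, with the motif at -79 to -74. For Sema5a the window is chr15:32244634-32244709 with the motif at -144 to -139. All are on the plus strand of GRCm38.p6.
Sema6d, distal: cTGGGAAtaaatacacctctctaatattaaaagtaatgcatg
Sema6d, proximal: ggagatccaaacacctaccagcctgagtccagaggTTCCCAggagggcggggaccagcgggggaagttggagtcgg
Sema5a: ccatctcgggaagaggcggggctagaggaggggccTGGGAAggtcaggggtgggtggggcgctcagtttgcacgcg
A match is a description of the letters and no evidence of binding. The table had promoters for 39 of the 48 guidance genes, 15 of the called ones among them. The motif stood in 7 of the 39 genes (17.9%) and in 2 of the 15 called genes (13.3%), against 24.1% of all 27025 genes in the table. The longer form GTGGGAA was in none of the 17 promoter windows of called genes and in 5.42% of all windows. Promoters of Sema3f and Plxna4 were not analysed here.

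Plexins, the semaphorin receptors, had 3 higher genes among 9 and 1 lower gene. Plxnd1, the plexin best known in endothelium (ENSMUSG00000030123, chromosome 6 from 115954811 to 115995005, minus strand), rose from 1026, 1058 and 1015 CPM to 1623, 1574 and 1680.0 CPM. The distance between the groups was many times the spread within either, with a log2 fold change of 0.65 ± 0.035 and a 1.57-fold rise (adjusted p = 3.33e-05). Plxnb1, a receptor of Sema4d, rose from 68.0, 66.1 and 67.2 CPM to 88.3, 79.9 and 88.0 CPM (log2 fold change 0.35 ± 0.048, adjusted p = 0.00274). The exons of Plxnb1 overlap those of an antisense gene. Plxna2, a receptor of class 6 semaphorins, had 106, 108 and 98.7 CPM in control and 116, 117 and 123 CPM in mutant libraries (log2 fold change 0.19 ± 0.045, adjusted p = 0.0295). Dropping control library 2 kept its call, but dropping any of the other 5 libraries ended it, with adjusted p from 0.0622 to 0.0723.

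Plxna4, which binds class 3 and class 6 semaphorins and overlaps an antisense gene, was the plexin that fell. It had 27.1, 28.7 and 24.9 CPM in control and 18.5, 15.4 and 19.1 CPM in mutant libraries (log2 fold change -0.61 ± 0.10, adjusted p = 0.00621). Plxna1 and Plxnb2 lay close to the threshold without passing it. Plxnb2 had 264, 264 and 243 CPM in control and 236, 229 and 213 CPM in mutant libraries (log2 fold change -0.19 ± 0.051, adjusted p = 0.0509), and it was called without control library 3, with DESeq2 and without the low-count filter (0.0359, 0.0423 and 0.0383). Plxna1 had 79.3 ± 2.37 and 71.6 ± 2.16 CPM (adjusted p = 0.0572), and it was called with library size only (0.0344) and with the stricter filter (0.0489). Plxna3, Plxnb3 and Plxnc1 had 7.80, 1.61 and 14.5 CPM in control libraries, with adjusted p of 0.377, 0.373 and 0.892. The summed plexin level was 202, 206 and 196 CPM per kilobase in control and 281, 272 and 286 in mutant libraries. Plxnd1 supplied 70.2 ± 0.595% of it in control and 79.6 ± 0.725% in mutant libraries, and Plxnb2 16.5 ± 0.454% and 10.5 ± 0.702%.

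In the Slit and Robo system only the ligand Slit2 was called. Slit2 had 18.1, 20.3 and 20.7 CPM in control and 12.9, 13.1 and 11.3 CPM in mutant libraries, with no overlap. It fell 1.59-fold (log2 fold change -0.66 ± 0.089, adjusted p = 0.00235). Astrocyte, fibroblast and smooth muscle markers had lower levels there too (medians -0.34, -0.46 and -1.10), and their part in this fall was not tested. Slit3, the Slit gene with the highest level per length, had 7.68, 7.65 and 6.68 CPM in control and 7.95, 8.02 and 7.67 CPM in mutant libraries, with an adjusted p of 0.574. That rank rests on the merged exon length, 6067 bases for Slit3 and 25433 for Slit2, and in CPM Slit2 stood higher. Slit1 was near the limit of detection at 0.209 and 0.174 CPM.

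No Robo receptor was called by edgeR or limma-voom, DESeq2 called 1 (Robo3), and 1 of the 4, again Robo3, had an unadjusted p under 0.05 in edgeR. Robo4 (ENSMUSG00000032125), which made up 98.3 ± 0.213% of the summed Robo level in control and 98.3 ± 0.267% in mutant libraries, had 326, 337 and 344 CPM against 344, 349 and 375 CPM. The groups of Robo4 met at 344 CPM, and the log2 fold change was 0.08 ± 0.043 (adjusted p = 0.263). Robo1, a receptor of Slit2, had 12.1 ± 1.75 and 11.6 ± 0.994 CPM, and Robo2 had 5.78 ± 0.717 and 5.76 ± 1.65 CPM. Robo3, whose gene ends 553 bases from the end of Robo4 on the other strand, had 0.265, 0.122 and 0.293 CPM in control and 0.572, 0.695 and 0.594 CPM in mutant libraries. Its log2 fold change of 1.44 ± 0.43 missed the threshold (adjusted p = 0.069), which it passed with DESeq2 (0.022) and with counts divided by 4 (0.0418).

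Netrins were lower where they were called. Ntn4, a netrin found in basement membranes, fell from 21.5, 20.2 and 20.0 CPM to 16.1, 14.1 and 13.9 CPM (log2 fold change -0.48 ± 0.081, adjusted p = 0.00658). Ntng2, a membrane-anchored netrin-G that binds Lrrc4, fell from 9.70, 7.95 and 8.63 CPM to 6.2, 6.63 and 5.74 CPM (log2 fold change -0.50 ± 0.11, adjusted p = 0.0242). For Ntng2 the call was lost on dropping control library 1, control library 3, mutant library 1 or mutant library 3 (adjusted p of 0.0835, 0.0638, 0.0676 and 0.0697). Some of its exon sequence overlaps another gene on its strand.

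Ntn1, the classical secreted netrin, had 16.9, 67.7 and 69.1 CPM in control and 79.2, 75.8 and 73.2 CPM in mutant libraries. Control library 1 lay far below the other 5. The log2 fold change was 0.57 ± 0.57 (adjusted p = 0.622), and without that library it was 0.16 ± 0.051 (adjusted p = 0.124), not called either way. Ntn3 had 6.27 ± 0.227 and 4.94 ± 0.472 CPM (adjusted p = 0.089), and Ntng1 stayed under 1 CPM.

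The netrin receptors Unc5a and Unc5b moved in opposite directions. Unc5b, the Unc5 receptor of endothelial cells (ENSMUSG00000020099, chromosome 10 from 60762593 to 60831581, minus strand), had 269, 274 and 272 CPM in control and 190.0, 194 and 206 CPM in mutant libraries. The mutant libraries lay well below all control libraries. The gene fell 1.38-fold (log2 fold change -0.47 ± 0.038, adjusted p = 0.000215). Unc5a, best known from neurons (ENSMUSG00000025876, chromosome 13 from 54949411 to 55006018, plus strand), rose from 2.56, 3.33 and 2.04 CPM to 9.88, 9.59 and 7.49 CPM. This 3.40-fold rise was the largest of the called guidance genes (log2 fold change 1.76 ± 0.20, adjusted p = 0.00108), on 167 to 272 counts in control and 555 to 812 counts in mutant libraries. The summed neuron markers overlapped between the groups, at 174 to 189.5 and 173 to 203 CPM, but 8 of the 10 had a log2 fold change above 0. Rbfox3, Snap25, Slc17a7 and Gad2 were above the controls without overlap and uncalled, while Stmn2 was lower (-0.24) and Gad1 lay below the controls, uncalled. The part of neuronal RNA in the rise of Unc5a was not tested. Hk3, an antisense gene that shares 34 exon bases with Unc5a, had 5.95 ± 0.521 and 5.56 ± 1.13 CPM and was not called (adjusted p = 0.778).

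Even after its rise Unc5a stood at 2.16 ± 0.312 CPM per kilobase in mutant libraries, against 31.4 ± 1.3 for Unc5b. Neo1, a receptor of netrins and of repulsive guidance molecules, had 116, 131 and 128 CPM in control and 115, 113 and 106 CPM in mutant libraries (log2 fold change -0.17 ± 0.057, adjusted p = 0.103), and it was called without control library 1 (0.0499). Dcc had 12.2, 15.7 and 14.2 CPM against 21.2, 17.6 and 14.4 CPM (adjusted p = 0.22), Unc5c 17.1 ± 1.44 and 18.5 ± 2.09 CPM (adjusted p = 0.584), and Unc5d under 1 CPM. The summed level of the 6 receptors was 58.8, 61.8 and 60.5 CPM per kilobase in control and 48.6, 48.6 and 48.8 in mutant libraries, of which Unc5b supplied 71.9 ± 1.19% and 64.5 ± 2.53%.

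Flrt2, an adhesion protein that binds Unc5 receptors and latrophilins, had 106, 111 and 104 CPM in control and 70.9, 68.6 and 76.0 CPM in mutant libraries. It fell 1.49-fold (log2 fold change -0.58 ± 0.050, adjusted p = 0.000286). Fibroblast and smooth muscle markers had medians of -0.46 and -1.10, and their part was not tested. Flrt3 had 4.29 ± 0.108 and 3.28 ± 0.856 CPM and was not called (adjusted p = 0.278).

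Partners of these ligands and receptors also moved both ways. Of 104 listed co-receptors, further ligands and cytoplasmic partners 102 were tested, and 21 were higher and 14 lower, or 34.3% called against 14.4% of all genes tested. The partner list was drawn up with earlier results of these data known, so its share is no independent test. Without control library 1 the number called was 21. Their median log2 fold change was 0.05. Nrp1, the co-receptor of Sema3a, rose from 263 ± 13.3 to 379.9 ± 21.1 CPM (log2 fold change 0.53 ± 0.053, adjusted p = 0.000584). The neuropilins and other surface partners of plexins had 1 of 11 higher and 2 lower, Tyrobp and Trem2 of the microglial receptor complex. Tyrobp fell from 66.1 to 53.0 CPM (adjusted p = 0.0119, and 0.0554 without control library 1), beside microglia and macrophage markers with a median of -0.33.

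On the list of netrin, repulsive guidance molecule and Slit partners, which also held Ecscr, 9 of 16 genes tested were called. Of these 3 were higher and 6 lower, or 56.2% called against 14.4% of all genes tested. Among the lower ones were heparan sulfate proteoglycans, a class of surface protein that binds Slit. Sdc1 fell from 45.8 ± 1.57 to 21.3 ± 1.85 CPM (log2 fold change -1.11 ± 0.073, adjusted p = 8.34e-05), Gpc4 by 0.65, Sdc2 by 0.54 and Gpc1 by 0.38 on the log2 scale. Sdc3, a proteoglycan of the same class, was among the higher genes of this list at 0.23. The call of Gpc1 was lost with library size only and when control library 1 or 2 or mutant library 2 or 3 was dropped (adjusted p of 0.0542 to 0.144). Ecscr, an endothelial surface protein whose gene overlaps an antisense gene, rose from 151 ± 20.0 to 269.5 ± 45.6 CPM (adjusted p = 0.0315), and Lrrc4c, the ligand-binding partner of Ntng1, rose by 0.60 on the log2 scale from 3.80 CPM (adjusted p = 0.0228). Both of these calls depended on single libraries. The adjusted p of Ecscr was 0.102, 0.112, 0.0988 and 0.104 on dropping control library 1, control library 3, mutant library 1 and mutant library 3 in turn, and 0.0685 without the low-count filter. That of Lrrc4c was 0.0788, 0.0782, 0.0681 and 0.0657 on dropping control libraries 1 and 2 and mutant libraries 1 and 3 in turn.

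Of 63 cytoplasmic partners 15 were higher and 6 lower, or 33.3% called against 14.4% of all genes tested. Over all genes tested 7.56% were called higher and 6.83% lower. The actin-binding gene Ablim3, of a family placed downstream of netrin signalling, rose from 7.05 ± 0.829 to 15.9 ± 1.40 CPM (log2 fold change 1.17 ± 0.12, adjusted p = 0.000519). Micall2, a relative of the plexin effector Mical, rose by 0.90 and Crmp1, a cytoplasmic mediator of class 3 semaphorin signals, by 0.52 on the log2 scale. Rnd1, a small GTPase that binds plexins, fell from 19.0 ± 0.975 to 12.8 ± 0.488 CPM (log2 fold change -0.57 ± 0.072, adjusted p = 0.00179). Of the FLRT partners 1 of 5 was higher, and of the other semaphorins and semaphorin receptors 1 of 7. Lists this short cannot be set against the share over all genes tested.

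Of the 17 called guidance genes 14 were called under all 14 alternatives of scaling, filter, test, block and libraries. The other 3 were Sema5a, Plxna2 and Ntng2, and none of the 17 changed sign. The 14 cover every called gene with a fold change of at least 1.5 and the lower changes of Plxnb1, Unc5b, Ntn4, Sema6b, Sema6d and Flrt2.

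**Figure D5:**
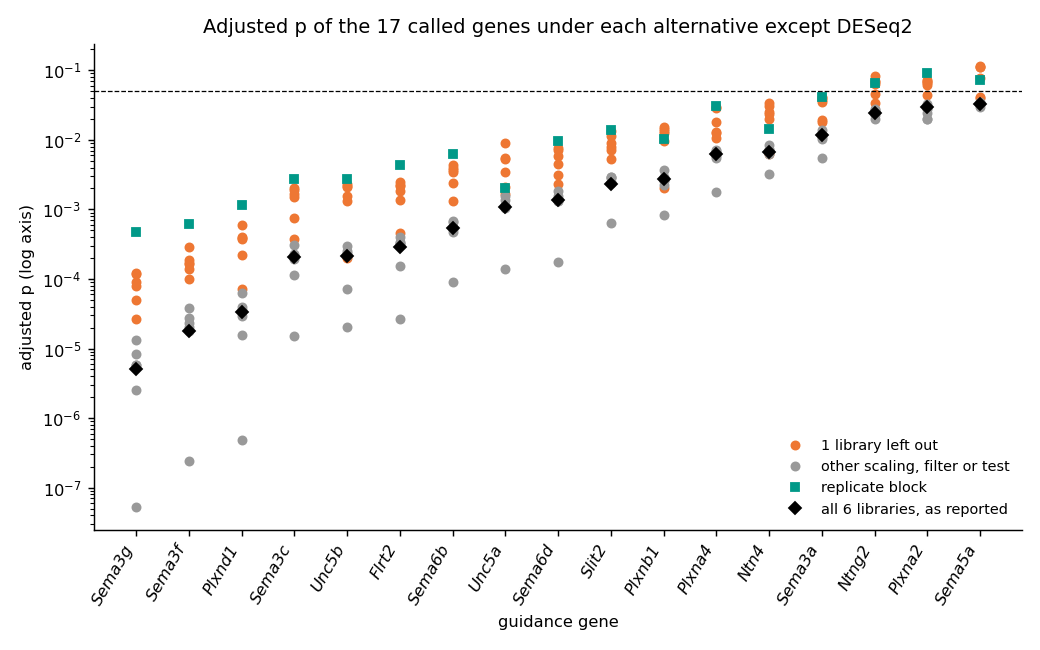
Adjusted p of the 17 called guidance genes on a log axis, with all 6 libraries (black), with 1 library left out (orange), with the replicate block (green) and with another scaling, filter or test except DESeq2 (grey); the dashed line is the threshold of 0.05. Points above the line belong to Ntng2, Plxna2 and Sema5a.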

How the data were processed

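The authors' deposited table holds estimated counts per gene for 6 libraries, whole and without normalization. The submitters' processing notes name the build GRCm39 and the tools StringTie 1.3.4, HISAT2, cutadapt 1.10, edgeR and FastQC 0.10.1. Their roles, the annotation and the strand setting are not given in the sources used here. The deposited quality table gives the count of valid reads per library, per the file headers. All 55450 gene identifiers matched GENCODE M21, which gave symbols, exon lengths and GRCm38 coordinates. Counts piled up at multiples of 4 (1118 to 1190 genes per library with a count of 4, 316 to 365 with 3, 171 to 189 with 5), so precision follows read pairs, at about 4 counts each, and not the count.

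A test for raw counts was planned and was kept, since the estimates needed no rounding. Genes were kept with filterByExpr, libraries scaled by TMM, and groups compared with the robust quasi-likelihood test of edgeR 4.0.16 (R 4.3.3), without covariates and with Benjamini-Hochberg adjustment over 19549 genes. It was tested on simulated data, where the share of false calls exceeded the nominal threshold and most of the smallest changes were missed. Far fewer genes were changed there than were called here, so these rates do not carry over to the data. Calls near the threshold are still read as less certain than their adjusted p, and a gene not called may have changed. CPM are counts per 1000000 of the TMM-scaled library size, and levels per length divide them by merged exon length. The SE is the size of the log2 fold change over the square root of F. Alternatives were RLE factors, library size only, no filter beyond a count above 0, at least 1 CPM in 3 libraries, DESeq2 1.42.0, limma-voom 3.58.1, counts divided by 4, a replicate block, and each library left out. Values by library are given for called genes and for the gene with the highest level of each family, and the 6 partners with the largest called change in each direction are named; Nrp2, Trem2, Sdc3 and Hk3 were added after their values were seen, as were some uncalled members given by library. Members, partner lists and marker lists were chosen with earlier results of these data known. Of the listed names, 1 partner and 1 marker were not matched.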

Additional observations from a re-analysis of the deposited data

How the results depend on the processing

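The number of guidance genes called higher ranged from 7 to 10 and that called lower from 7 to 11 over the 14 alternatives, against 8 and 9. With the replicate block, which rests on a shared number only, 7 were higher and 9 lower, 14 of the 17 calls were shared, and 2059 of all genes tested were called against 2812. There Sema5a, Plxna2, Ntng2 and the partner Ecscr were not called (adjusted p of 0.0735, 0.0922, 0.0662 and 0.159), while Plxnb2 and Sema3b were (0.031 and 0.0467). No pairing by number was seen. Deviations from the group means of same-numbered libraries correlated at -0.023, 0.0097 and 0.023, and not every library correlated best with its own number. Correlations this small among 3 libraries per group cannot exclude pairing. With 1 library left out, 1907 to 2395 of all genes and 21 to 29 of the partner genes were called, against 35 partner genes with all libraries; 21 was the number without control library 1. The log2 fold change of Rbpj lay between -0.23 and -0.19 with 1 library left out. That of Sema4c lay between -0.16 and 0.38, and it was negative on dropping control library 1 (-0.16), control library 2 (-0.11) and mutant library 1 (-0.04). Such fits have fewer libraries, and the cause was not tested. No scaling moved the median of all genes by more than 0.011 on the log2 scale. Depth limits Robo3, Slit1, Ntng1, Unc5d and Sema3e, all under 1 CPM.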

Other observations

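Among the 31 guidance genes that were not called, 10 had no overlap between control and mutant libraries, where 23.0% of all 16737 uncalled genes had none. They were Flrt3, Robo3, Ntn1, Ntn3, Neo1, Plxna1, Plxnb2, Sema3b, Sema4b and Sema6a. For Robo3, Ntn1 and Sema6a the mutant libraries lay above the controls, and for the other 7 below them. Plxnb2 was the closest to the threshold, where edgeR's quasi-likelihood test gave an adjusted p of 0.0509.

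Ntn1 in control library 1 is a value to look at again. Among 11738 genes with a mean of at least 5 CPM, 13 were at least 3-fold lower in control library 1 than in each of the other 5 libraries, and Ntn1 was the only guidance gene of them. In the other libraries between 6 and 17 genes stood that far below the rest, with no guidance gene among them, and 1 to 5 genes per library stood that far above the rest.

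The 4 class 3 semaphorin genes on chromosome 5 did not move together. Sema3a rose by 0.90 and Sema3c fell by 0.74 on the log2 scale, while Sema3d and Sema3e, which lie on either side of Sema3a, stood at -0.09 and -0.06 and were not called.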
